A study of Mus musculus with 4 samples.

Results

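The genes of heme biosynthesis were followed in RNA sequencing of fetal liver LSK cells from *Pich*-KO and *Pich*-WT mice. They were 9 genes taken by name from the deposited table of 39186 genes: *Alas1*, *Alas2*, *Alad*, *Uros*, *Urod*, *Cpox*, *Ppox* and *Fech*, which encode enzymes of the pathway, and *Slc25a37*, which encodes the mitochondrial iron carrier mitoferrin-1. LSK cells are the Lin−Sca-1+c-Kit+ cells in which hematopoietic stem cells and multipotent progenitors are enriched. They were sorted from mid-gestation C57BL/6 fetal livers, after staining for lineage antigens (among them CD4, B220 and the red cell antigen Ter119), from 2 *Pich*-KO and 2 *Pich*-WT samples. PICH (Plk1-interacting checkpoint helicase, *Ercc6l*) is a DNA translocase encoded on the X chromosome. The *Pich*-KO line carries a small TALEN-made deletion at the start of the second exon in all its cells, from crosses of *Pich*+/− females with wild type males, and the labels name no agent given to either group. The allele is in the germ line, so the fetal liver around the LSK cells lacked PICH as well, and the labels do not say how many embryos went into a sample.

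Heme is made from glycine and succinyl-CoA by a chain of enzymes that starts and ends in mitochondria and passes through the cytosol between. The first enzyme, 5-aminolevulinate synthase, limits the rate and has a form found in all tissues, ALAS1, and an erythroid form, ALAS2, whose loss causes X-linked sideroblastic anemia. In the fetal liver the largest user of heme is the erythroid lineage, which assembles it into hemoglobin, while stem cells and other blood cells need it for respiration and for cytochromes.

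The samples held 14703215 to 20933919 reads counted on genes. The samples of each group differed by more than counting noise and were each counted as 1 replicate. Nothing in the labels says that they came from separate embryos, so p-values measure the spread between these samples. *Pich*-WT sample 2 had 0 reads on 4 Y-linked genes, which the other samples did express. Its normalized count of the X-linked *Xist* was 699, against 9.38 in *Pich*-WT sample 1 and 14.2 and 4.55 in *Pich*-KO. By these genes *Pich*-WT sample 2 differed in sex from the other samples. The table counts the mutant transcript too, so it does not check the genotype. Of the genes that define LSK cells, *Ly6a* (Sca-1) was at 3586 and 2978 normalized counts in *Pich*-KO against 901 and 1061 in *Pich*-WT, and *Kit* at 4447 and 2773 against 2328 and 2513. Markers of other cells were present in the sorted samples and moved with genotype. The summed normalized count of 12 macrophage markers was 8487 and 7297 in *Pich*-KO against 59911 and 62154 in *Pich*-WT, all 12 were lower, and none was at 0 in both *Pich*-KO samples. *Csf1r* alone gave 7268 and 6111 of the *Pich*-KO sums and 16306 and 17259 of the *Pich*-WT sums. That of 16 erythroid markers outside the heme pathway was 13569 and 15266 against 44637 and 38627. Of these 16, 10 were lower, 6 did not pass the threshold and none was at 0 in both *Pich*-KO samples. Of all genes tested, 9.6% were lower.

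Values are normalized counts, that is, the reads on a gene scaled by a size factor for each sample. The test was limma on log2(normalized count + 1). It covered 32428 genes whose mean reached 1, the 9 heme genes among them, with Benjamini-Hochberg adjustment over the whole set and a threshold of 0.05. A negative log2 fold change means a lower level in *Pich*-KO.

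Most of the pathway was lower in *Pich*-KO LSK cells. *Alas2*, *Alad*, *Urod*, *Cpox*, *Fech* and *Slc25a37* fell, *Alas2* by 8.53-fold and the other 5 by 1.82-fold to 2.14-fold, while *Uros*, *Ppox* and *Alas1* did not pass the threshold. Thus 6 of the 9 genes were lower and 0 were higher, where 9.6% and 7.58% of all genes tested were. The median log2 fold change of the 9 was −0.96, and that of all genes tested was 0.02. In 7 of the 9 both *Pich*-KO samples lay below both *Pich*-WT samples and in 1, *Alas1*, above them, where 27.2% and 28.9% of all genes tested did so. In bulk samples, fewer cells that express a gene and less RNA of it per cell cannot be told apart. The part of the erythroid and macrophage markers in these changes was not tested.

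**Figure D1:**
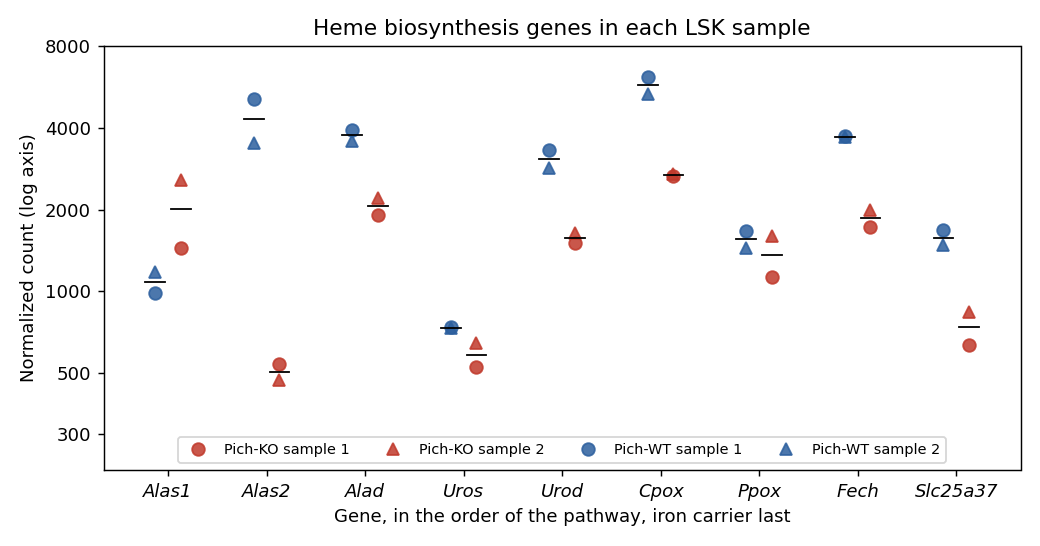
Normalized count (log axis) of each heme biosynthesis gene in the 4 LSK samples, with circles for sample 1, triangles for sample 2, red for *Pich*-KO, blue for *Pich*-WT and a black line at each group mean. The red and blue points are farthest apart for *Alas2* (539 and 471 against 5106 and 3506), overlap only for *Ppox*, and lie in the opposite order for *Alas1*.

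**Figure D2:**
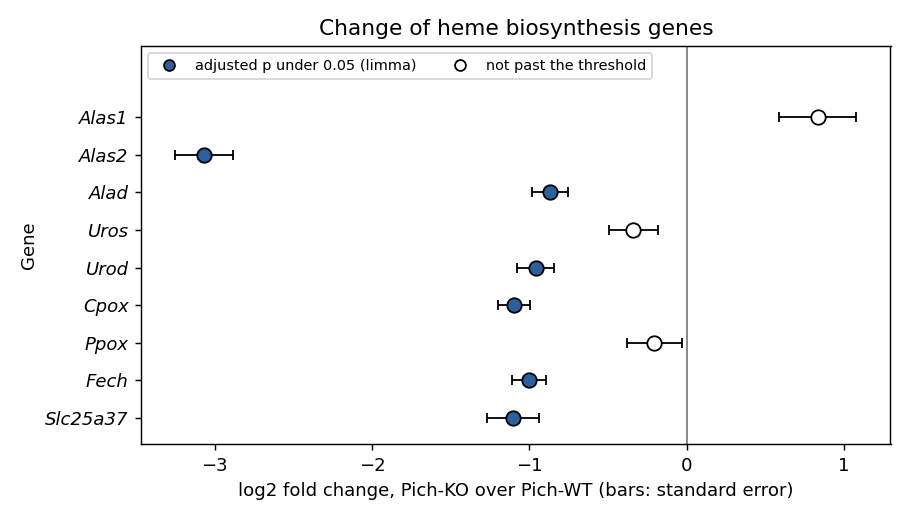
Log2 fold change of each gene, *Pich*-KO over *Pich*-WT, on the log2(normalized count + 1) scale, with the standard error as a bar and filled points for genes with an adjusted p under 0.05 in limma. The 6 filled points run from −3.07 for *Alas2* to −0.87 for *Alad*, and the open points are *Uros* at −0.34, *Ppox* at −0.21 and *Alas1* at 0.83.

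The pathway opens with the rate-limiting step. *Alas2* (ENSMUSG00000025270, GRCm38 chrX:150547375-150570638, plus strand), the erythroid 5-aminolevulinate synthase, had normalized counts of 539 and 471 in *Pich*-KO against 5106 and 3506 in *Pich*-WT. Both *Pich*-KO samples were far below both *Pich*-WT samples, and the *Pich*-WT samples differed more from each other than the *Pich*-KO samples did. The means were 505 ± 48.2 and 4306 ± 1131 (SD, n = 2 each), and the log2 fold change was −3.07 (standard error 0.18, adjusted p = 5.75e-05, limma). *Alas2* is X-linked, and the *Pich*-WT sample without Y-linked reads was the lower of the pair. Without that sample the log2 fold change was −3.34.

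*Alas1* (ENSMUSG00000032786, GRCm38 chr9:106233455-106248654, minus strand), the form used by every cell, ran the other way. Its normalized counts were 1442 and 2568 in *Pich*-KO against 985 and 1183 in *Pich*-WT, so both *Pich*-KO samples lay above, with *Pich*-KO sample 2 much the higher. The log2 fold change was 0.83 (standard error 0.25, adjusted p = 0.0559, limma), just outside the threshold. It rested on *Pich*-KO sample 2 for its size and was 0.42 without that sample and 1.25 without *Pich*-KO sample 1. edgeR on the recovered reads gave an adjusted p of 0.0362 and DESeq2 one of 0.000945, and over all 13 alternatives the adjusted p ranged from 7.12e-06 to 0.507.

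The balance between both synthases therefore differed between the groups. Per kb of gene length, as the deposited table gives it, the level of *Alas2* over that of *Alas1* was 0.96 and 0.471 in *Pich*-KO against 13.3 and 7.61 in *Pich*-WT. By this measure *Alas2* was the more abundant synthase in both *Pich*-WT samples and the less abundant in both *Pich*-KO samples, narrowly so in sample 1. It made up 49.0% and 32.0% of the summed level per kb in *Pich*-KO against 93.0% and 88.4% in *Pich*-WT. The summed level per kb was 458 and 612 against 2284 and 1651, 3.68-fold lower in *Pich*-KO by the means. The log2 ratio differed by −3.90, and an exact two-sided permutation test gave p = 0.333, the smallest that 2 samples against 2 allow.

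**Figure D3:**
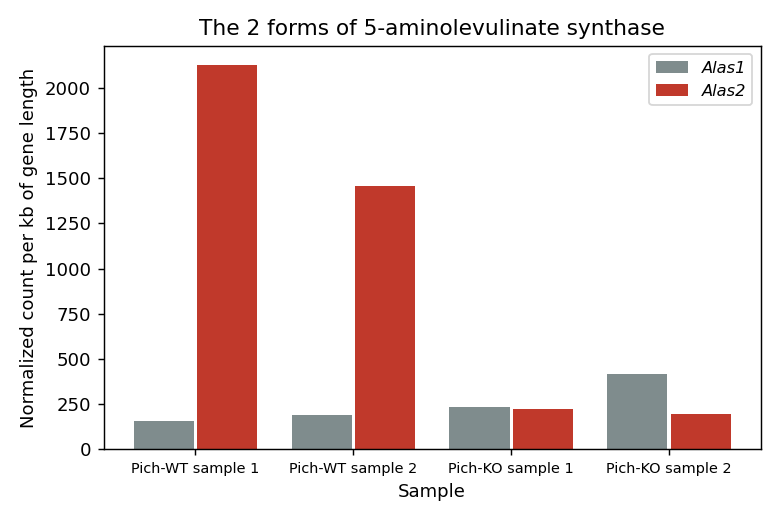
Normalized count per kb of gene length of *Alas1* (grey) and *Alas2* (red) in each LSK sample, with bars from 0. The red bar reaches 2125 and 1459 in the *Pich*-WT samples and 224 and 196 in the *Pich*-KO samples, where the grey bar stands at 234 and 416.

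Steps in the cytosol followed. *Alad* (ENSMUSG00000028393, GRCm38 chr4:62509169-62519918, minus strand), which condenses aminolevulinate into porphobilinogen, had normalized counts of 1904 and 2210 in *Pich*-KO against 3913 and 3581 in *Pich*-WT. The groups stood well apart relative to their own spread. Its log2 fold change was −0.87 (standard error 0.11, adjusted p = 0.0015, limma). *Alad* is known to have a housekeeping and an erythroid promoter, as is *Uros*, and counts per gene do not separate their transcripts.

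*Uros* (ENSMUSG00000030979, GRCm38 chr7:133686243-133710072, minus strand), which closes the ring to uroporphyrinogen III, stood at 526 and 645 normalized counts in *Pich*-KO against 742 and 731 in *Pich*-WT. Both *Pich*-KO samples lay below, but they differed from each other about as much as from the *Pich*-WT samples. Its log2 fold change, −0.34 (standard error 0.16, adjusted p = 0.202, limma), did not pass the threshold. *Urod* (ENSMUSG00000028684, GRCm38 chr4:116989965-116994413, minus strand), which removes the carboxyl groups of the side chains to form coproporphyrinogen, had 1507 and 1646 against 3304 and 2843 normalized counts. Its samples did not overlap, and its log2 fold change was −0.96 (standard error 0.12, adjusted p = 0.00114, limma).

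*Cpox* (ENSMUSG00000022742, GRCm38 chr16:58670292-58717636, plus strand), the coproporphyrinogen oxidase of the mitochondrial intermembrane space, had 2648 and 2708 normalized counts in *Pich*-KO against 6154 and 5331 in *Pich*-WT. The *Pich*-KO samples were nearly equal and lay far below the others. Its log2 fold change was −1.10 (standard error 0.10, adjusted p = 0.000315, limma). *Ppox* (ENSMUSG00000062729, GRCm38 chr1:171275990-171281186, minus strand), which oxidizes the product of *Cpox* to protoporphyrin IX, had 1130 and 1602 in *Pich*-KO against 1664 and 1448 in *Pich*-WT. *Ppox* was the only member whose groups overlapped. The log2 fold change was −0.21 (standard error 0.18, adjusted p = 0.513, limma) and changed sign, to 0.045, without *Pich*-KO sample 1.

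*Fech* (ENSMUSG00000024588, GRCm38 chr18:64456550-64489066, minus strand), the ferrochelatase that puts iron into protoporphyrin, had normalized counts of 1723 and 1994 in *Pich*-KO against 3727 and 3701 in *Pich*-WT. The *Pich*-WT samples were almost identical, and the groups did not overlap. The log2 fold change was −1.002 (standard error 0.11, adjusted p = 0.000648, limma). *Slc25a37* (ENSMUSG00000034248, GRCm38 chr14:69241848-69285112, minus strand), which brings iron into the mitochondria of erythroid cells, had 635 and 843 against 1676 and 1480. Again the groups did not overlap, and its log2 fold change was −1.11 (standard error 0.16, adjusted p = 0.00279, limma).

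The same 6 genes were lower with DESeq2 and with edgeR on the recovered reads. When limma used a single prior variance for every gene, 0 of the 9 were lower, and of all genes tested 0 passed, with 7377 at an unadjusted p under 0.05. Without *Pich*-KO sample 1, 2 of the 6 were still called, *Alas2* and *Fech*, and without any other sample 0 were, while the direction of all 6 held in each of these fits.

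The promoters of *Alas2* and *Cpox*, which fell, and of *Ppox*, which did not pass, are shown for comparison of their sequence. Those of the other genes that fell are not shown. Windows of 300 bases around the RefSeq start (GRCm38.p6) were taken for 7 of the 9 genes, 10 windows in all. Windows were searched on both strands for the GATA motif, spelled AGATAA (or with G as the last base, or T as the first, or both). They were also searched for CCNCNCCC, a pattern that takes in forms of the CACCC box that *Klf1* binds. As N is any base, it also matches letters without CACCC, such as CCGCGCCC before *Alas1* and CCGCCCCC before *Uros*. Matches that hold CACCC were not counted apart. Capitals mark a match to GATA or CCNCNCCC, in the stretch before the first annotated exon, 5′ to 3′ on the strand of the gene.
*Alas2* (chrX:150547167-150547374, plus strand): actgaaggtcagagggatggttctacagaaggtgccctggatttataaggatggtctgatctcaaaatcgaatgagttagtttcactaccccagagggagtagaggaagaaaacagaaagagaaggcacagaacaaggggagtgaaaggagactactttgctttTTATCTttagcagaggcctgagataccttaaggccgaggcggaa
*Cpox* (chr16:58669958-58670207, plus strand): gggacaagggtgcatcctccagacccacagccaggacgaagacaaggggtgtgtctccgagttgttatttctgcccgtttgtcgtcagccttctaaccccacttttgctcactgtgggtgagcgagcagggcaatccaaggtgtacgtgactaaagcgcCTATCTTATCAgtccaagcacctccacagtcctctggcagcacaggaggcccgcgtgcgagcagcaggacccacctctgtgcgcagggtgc
*Ppox* (chr1:171281187-171281436, minus strand): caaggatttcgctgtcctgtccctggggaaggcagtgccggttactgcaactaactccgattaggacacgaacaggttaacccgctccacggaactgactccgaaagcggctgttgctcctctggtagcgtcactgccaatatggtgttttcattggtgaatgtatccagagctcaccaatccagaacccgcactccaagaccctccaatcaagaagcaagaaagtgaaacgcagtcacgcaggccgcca

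The *Alas2* stretch holds 1 GATA match, read on the opposite strand, 86 bases before the start. The *Cpox* stretch holds 2 that overlap, at 91 and 86 bases before the start. In the *Ppox* stretch, as in the windows of *Alad*, *Alas1* and *Urod*, neither strand held a GATA match. Over all, 3 of the 10 windows of heme genes (*Alas2*, *Cpox* and the downstream one of *Uros*) held a GATA match, against 29.8% of 32851 mouse windows, and 9 of 10 held CCNCNCCC, against 49.5%. The windows of *Alad* overlap each other, as do those of *Alas1*, so a match can count in both. No window of *Fech* or *Slc25a37* was searched, although both genes fell, so these counts do not cover them. The CCNCNCCC matches of *Alas2*, *Cpox* and *Ppox* lie outside the stretches shown. Of the genes with a GATA match, *Alas2* and *Cpox* fell and *Uros* did not pass, and of those without, *Alad* and *Urod* fell and *Alas1* and *Ppox* did not pass.

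Levels of the enzymes can be ranked per kb of gene length. The order and the shares depend on this length, as deposited, and transcript lengths in these cells are not given. In *Pich*-WT the order was *Alad* (2003 normalized counts per kb), *Alas2* (1792), *Fech* (1280), *Urod* (1186), *Cpox* (862), *Ppox* (345), *Slc25a37* (262), *Uros* (206) and *Alas1* (176), and only the ranges of *Alad* and *Alas2* overlapped between neighbours. In *Pich*-KO it was *Alad* (1099), *Fech* (641), *Urod* (609), *Cpox* (402), *Alas1* (325), *Ppox* (303), *Alas2* (210), *Uros* (164) and *Slc25a37* (123). Here the ranges of *Fech* and *Urod*, of *Cpox* and *Alas1*, and of *Alas1* and *Ppox* overlapped. *Alad* headed both orders. *Alas2* stood next to the top in *Pich*-WT and near the bottom in *Pich*-KO, and *Alas1* went from the bottom to the middle.

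*Alas2* made up 25.2% and 20.1% of the summed level per kb of the 8 enzymes in *Pich*-WT, but 6.51% and 4.83% in *Pich*-KO. *Alas1* made up 1.89% and 2.64% in *Pich*-WT, but 6.78% and 10.3% in *Pich*-KO. The share of *Cpox*, 11.5% and 10.02% in *Pich*-KO against 10.95% and 11.02% in *Pich*-WT, overlapped between the groups, as did that of *Fech*, at 17.2% and 16.9% against 15.2% and 17.6%. For *Ppox*, the share was 7.26% and 8.74% in *Pich*-KO against 4.37% and 4.42% in *Pich*-WT.

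**Figure D4:**
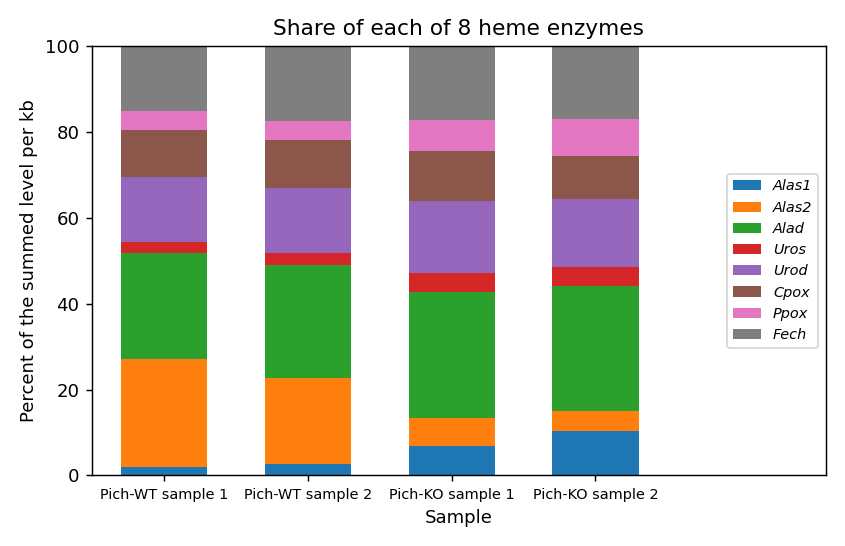
Share of each of the 8 enzymes in their summed normalized count per kb of gene length, in percent, for each LSK sample. The *Alas2* segment shrinks from 25.2% and 20.1% in *Pich*-WT to 6.51% and 4.83% in *Pich*-KO, while those of *Cpox* and *Fech* keep about the same height.

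Samples of a group were also compared. Between the *Pich*-KO samples, 8 of the 9 had the greater value in sample 2, as did 47.8% of all genes with a mean of at least 100, and the exception was *Alas2*. In *Pich*-WT, 8 had the greater value in sample 1, as did 65.1% of those genes, and the exception was *Alas1*. There the median gene was 0.06 higher in sample 1 on the log2 scale, and 6 of the 9 exceeded it.

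Levels were also set against the globin chains. Globin chains take up the heme of red cells, and their summed normalized count was 27555 and 28838 in *Pich*-KO against 173057 and 118339 in *Pich*-WT, 5.17-fold lower by the means. Per 1000 globin counts, *Alas2* had 19.6 and 16.3 in *Pich*-KO against 29.5 and 29.6 in *Pich*-WT. Relative to this sum, which *Hba-a1* dominates, *Alas2* lay lower, while each of the other 8 genes lay higher in both *Pich*-KO samples, by 2.36-fold to 9.01-fold by the means. This depended on the chain: per 1000 counts of *Hbb-bs*, *Alas2* had 281 and 241 in *Pich*-KO against 263 and 224 in *Pich*-WT, which overlap, as did its values relative to *Hbb-bh1*. Per 1000 counts of *Slc4a1*, the band 3 anion exchanger of the red cell membrane, *Alas2* had 259 and 217 in *Pich*-KO against 394 and 303 in *Pich*-WT, without overlap.

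Of the 7 globin genes, 5 were lower and 2 did not pass, where 9.6% of all genes tested were lower. *Hbb-bs*, an adult beta chain, had 1921 and 1950 normalized counts in *Pich*-KO against 19386 and 15651 in *Pich*-WT (log2 fold change −3.17, adjusted p = 9.03e-06, limma). The other adult chains followed, *Hbb-bt* at −2.57, *Hba-a1* at −2.29 and *Hba-a2* at −1.76, and so did the embryonic *Hbb-bh1* at −2.85. For *Hba-a2* the *Pich*-WT samples were far apart, at 23512 and 6379, against 3840 and 3397 in *Pich*-KO (standard error 0.48, adjusted p = 0.0418, limma). *Hba-a1* and *Hba-a2* are near-identical copies, as are *Hbb-bs* and *Hbb-bt*, and how reads were split between them is not given. The embryonic *Hba-x* and *Hbb-y* had log2 fold changes of 0.72 and 0.55 with overlapping groups.

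The other genes of the heme and iron pathways numbered 63 in 5 lists, of which 62 were tested. Of these, 4 were higher, 25 lower and 33 not past the threshold, with a median log2 fold change of −0.30. Of all genes tested, 7.58% were higher and 9.6% lower, so the higher calls were no more frequent here than among all genes. These shares also stand beside the counts of each list that follows. Leaving out *Pich*-KO sample 1 left 10 lower and 1 higher, and leaving out any other sample left 0 of either.

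Among 13 partners that move substrates for the enzymes or act beside them, 4 were lower and 2 higher. *Fam210b*, a mitochondrial protein of erythroid iron handling, had 356 and 319 normalized counts in *Pich*-KO against 1710 and 1289 in *Pich*-WT (log2 fold change −2.14, adjusted p = 0.000177, limma). *Abcb10*, an inner membrane transporter that binds mitoferrin-1 and stabilizes it, had 1018 and 1175 against 2287 and 1917 (−0.94, adjusted p = 0.0026, limma), a fall near that of *Slc25a37* itself. *Tmem14c*, which moves protoporphyrinogen into the matrix ahead of *Ppox*, fell by 0.38 on the log2 scale, with 3384 and 3905 against 4920 and 4528.

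*Slc25a38*, which imports the glycine that the synthases use, overlapped between the groups (747 and 1042 against 1033 and 1071). *Clpx*, an unfoldase that activates ALAS, had 1231 and 1205 against 1467 and 1363 (adjusted p = 0.28, limma).

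Iron-sulfur clusters are a second product that mitochondria make from imported iron, and *Fech* itself carries such a cluster. Of 14 assembly genes tested, 12 did not pass, 1 was higher and 1 lower, with a median log2 fold change of 0.16. These counts are near the shares of all genes tested, 7.58% higher and 9.6% lower. *Hspa9*, the mitochondrial chaperone mortalin, rose from 8433 and 9010 to 18324 and 18267 normalized counts (1.07, adjusted p = 7.73e-05, limma). *Isca1*, a late-acting assembly factor, fell from 1995 and 1601 to 845 and 803 (−1.12, adjusted p = 0.00133, limma).

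Genes for heme breakdown, uptake and export were lower in 6 of 10. *Hmox1*, the inducible heme oxygenase that opens the heme ring and is abundant in macrophages that recycle red cells, had 947 and 405 normalized counts in *Pich*-KO against 9994 and 10790 in *Pich*-WT (log2 fold change −4.07, adjusted p = 0.00017, limma). Its constitutive relative *Hmox2* had 1769 and 1602 against 1533 and 1492 and did not pass. The biliverdin reductases *Blvra* and *Blvrb* had log2 fold changes of −1.11 and −1.28, the heme transporter *Slc48a1* one of −1.42 and the porphyrin exporter *Abcg2* one of −0.96, all past the threshold. Beside them, the summed macrophage markers were 7.73-fold lower in *Pich*-KO, where *Csf1r* made up most of the sum. The median log2 fold change of these 12 markers was −5.42, and their part in these falls was not tested.

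*Cd163*, the hemoglobin scavenger receptor of macrophages, had 4.36 and 2.27 normalized counts in *Pich*-KO against 69.6 and 58 in *Pich*-WT (adjusted p = 0.00121, limma). The heme exporter *Flvcr1* had 345 and 324 against 472 and 439 (adjusted p = 0.11, limma). *Flvcr2* and *Hpx* had under 60 normalized counts in each sample and did not pass.

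Among 10 genes of iron uptake and storage, 6 were lower. *Slc40a1*, the iron exporter ferroportin, which macrophages also use, had 551 and 507 normalized counts in *Pich*-KO against 13376 and 17538 in *Pich*-WT (log2 fold change −4.85, adjusted p = 4.55e-06, limma). The ferritin chains fell less, *Ftl1* by 0.81 and *Fth1* by 0.45 on the log2 scale. *Trf*, the transferrin made by hepatocytes, had a log2 fold change of −2.22, the iron chaperone *Pcbp1* one of −1.98 and the ferritin receptor *Ncoa4* one of −0.43, all past the threshold.

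The intake side of the iron supply did not pass. *Tfrc*, the transferrin receptor, had 2611 and 2919 normalized counts in *Pich*-KO against 2574 and 2084 in *Pich*-WT (0.25, adjusted p = 0.252, limma), with both *Pich*-KO samples above. *Tfr2* and *Slc11a2* had log2 fold changes of −0.21 and −0.48, and *Steap3* overlapped between the groups (1239 and 1275 against 1297 and 1219).

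Of 15 regulators, 8 were lower and 1 higher. *Gata1*, the erythroid factor known to drive *Alas2*, had 883 and 928 normalized counts in *Pich*-KO against 1282 and 1059 in *Pich*-WT (log2 fold change −0.36, adjusted p = 0.132, limma), and *Klf1*, another erythroid factor, 1179 and 1598 against 2461 and 2107 (−0.73, adjusted p = 0.0179, limma). Both log2 fold changes were smaller in size than that of *Alas2*, and the part of either factor in the level of *Alas2* was not tested. *Ldb1*, which bridges GATA factors at enhancers, had the most negative change past the threshold (−1.06, adjusted p = 0.0214, limma).

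*Ireb2*, which encodes an iron-responsive RNA-binding protein that represses ALAS2 translation when iron is low, rose from 285 and 335 to 670 and 666 normalized counts (1.11, adjusted p = 0.00257, limma), while *Aco1*, which encodes its sister protein, fell by 0.75 on the log2 scale. *Bach1*, the heme-sensing repressor of *Hmox1*, had 309 and 242 against 234 and 227 and did not pass. *Eif2ak1*, the heme-regulated kinase that curbs globin translation when heme is short, fell from 2752 and 2551 to 2018 and 1813 (−0.47, adjusted p = 0.0218, limma).

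**Figure D5:**
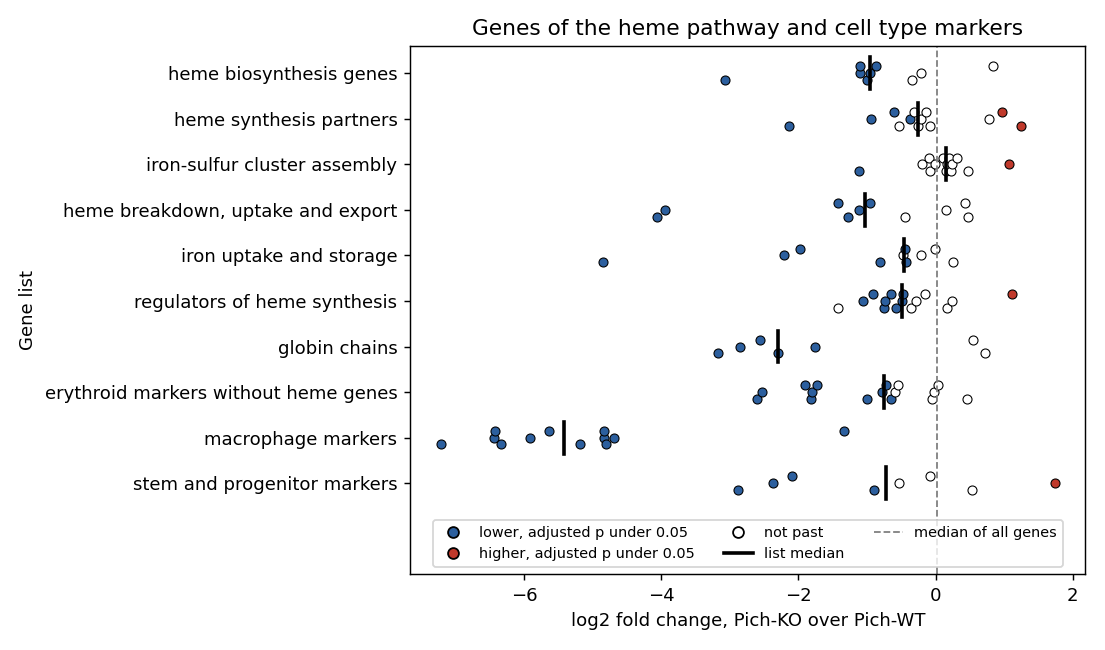
Log2 fold change, *Pich*-KO over *Pich*-WT, of each gene in the heme and iron lists and in 3 marker lists, with blue points for lower and red for higher at an adjusted p under 0.05 (limma), open points for genes not past it, a black bar at each list median and a dashed line at the median of all genes tested. The heme biosynthesis genes centre on −0.96, the assembly genes of iron-sulfur clusters on 0.16, the globin chains on −2.29 and the macrophage markers on −5.42.

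Genes whose profile over the 4 samples was most like that of *Alas2* were sought among 10544 genes with a mean of at least 100, by the Euclidean distance between log2(normalized count + 1) values centred on each gene's mean. Among the 5 nearest to *Alas2* were *Chst7* (0.109), *Tmem64* (0.113), *Slain1* (0.157) and *Pea15a* (0.182). For example, *Tmem64* had 139 and 123 normalized counts in *Pich*-KO against 1461 and 932 in *Pich*-WT. None of these 4 is a heme gene. Nearest to *Alas1* were *Snhg8* (0.0675), *Rccd1* (0.113), *Cbx3* (0.119), *Ccdc84* (0.138) and *Hist1h2bg* (0.161). Of these, *Snhg8* had 191 and 326 against 122 and 151, with *Pich*-KO sample 2 again the highest.

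Other markers were read beside these values. Of 10 hepatocyte markers 6 were lower, of 8 megakaryocyte markers 3, and of 5 antigens of the lineage sort 2. Of 8 stem and progenitor markers 4 were lower and 1, *Ly6a*, higher. The lower ones were *Procr* at −2.88, *Hlf* at −2.37, *Mecom* at −2.10 and *Slamf1* at −0.90 on the log2 scale. The other 3 did not pass, among them *Kit* (adjusted p = 0.114, limma). The part of all these markers in the levels of the heme genes was not tested.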

How the data were processed

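RNA of sorted fetal liver LSK cells was sequenced (2 samples per genotype, total RNA, TruSeq libraries). The sample values are a signal that the authors deposited: read counts per gene divided by one size factor per sample. Whole reads were recovered for 100% of values in each sample (tolerance 0.01 reads), 14703215 to 20933919 per sample. The submitters' processing notes name Bowtie 0.12.2 and the builds mm8 and mm9, but 97.8% of the gene coordinates equal those of GENCODE M21, so they are given on GRCm38. The counter is not given in the sources used here. The deposited fold changes and p-values of the authors were not used.

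The planned switch applied: as the deposited values were normalized, limma 3.58.1 (R 4.3.3) was used on log2(value + 1), with the prior variance modelled as a trend on the mean, genes with a mean of at least 1, and Benjamini-Hochberg adjustment over all genes. Alternatives included edgeR 4.0.16 and DESeq2 1.42.0 on the recovered reads, other filters, scalings and pseudocounts, a replicate block, and leaving out each sample. Fold changes on this scale understate those of low genes.

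The members and gene lists were chosen with earlier results of these data known. Named were all 9 members, the extremes among the called genes of each pathway list, all genes of lists of up to 10, 10 genes with a role at a member's step, and the 5 genes most like *Alas2* and *Alas1*. *Aco1*, *Csf1r*, *Hlf*, *Kit*, *Ly6a*, *Mecom*, *Procr*, *Slamf1*, *Slc4a1* and *Xist* were chosen after their values were seen. Some further genes that these rules name, and a further enzyme of the pathway, are not reported here. Coordinates and lengths are as deposited, and promoter windows are from RefSeq.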

Additional observations from a re-analysis of the deposited data

How the results depend on the processing

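Across 13 alternatives the log2 fold changes of the 6 lower genes kept their sign, with *Alas2* from −3.34 to −2.80, *Alad* from −0.97 to −0.76, *Urod* from −1.07 to −0.85, *Cpox* from −1.20 to −0.99, *Fech* from −1.11 to −0.90 and *Slc25a37* from −1.31 to −0.90. *Alas1* ranged from 0.42 to 1.25, *Uros* from −0.49 to −0.19 and *Ppox* from −0.46 to 0.045, the last value without *Pich*-KO sample 1. The 6 lower heme genes were the same 6 with another pseudocount, both other filters, the replicate block, DESeq2, edgeR and both other scalings. With one prior variance for all genes the counts of lower and higher calls were 0 for the heme genes, 0 for the partner genes and 0 for all genes, and the cause was not tested. *Alas1* was called higher, so that the count of higher heme genes was 1 and not 0, with at least 10 reads in every sample, with DESeq2, with edgeR and TMM, with limma after TMM scaling and with the replicate block. Leaving out each sample in turn gave 0 to 2 lower heme genes, 0 to 1 higher and 0 to 10 lower partner genes, 0 to 548 higher and 0 to 1193 lower genes of all tested, from 5716 to 8654 with an unadjusted p under 0.05. These fits have fewer samples, and a lone sample is assumed to vary like the other group. The log2 ratio of *Alas2* to *Alas1* ran from −4.42 to −3.39 over the same omissions.

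Deviations of same-numbered samples had a correlation of 0.0133 over 10544 genes, so no pairing by replicate number was seen, though this value cannot exclude it. The replicate block leaves fewer residual degrees of freedom, so its p-values rest more on the prior variance. With the replicate block 6 heme genes were lower and 1 higher (*Alas1*, adjusted p = 7.12e-06, limma), 27 partner genes lower and 5 higher, and 3874 genes lower and 3122 higher of all tested. Depth limits little here, since each heme gene had at least 414 reads in every sample, and the number of samples limits the precision.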
